A study of Sus scrofa with 11 samples.

Results

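TIE1, TEK, KDR, FLT1, ENG, ROBO4, EGFL7, ESAM, TMEM100 and BTNL9 are genes of the endothelium, the cell layer that lines blood vessels, and they were followed across 11 pig muscles. Each was found by its symbol, and each symbol matched 1 row, so the set is 10 of the 25322 gene rows. The muscle was the longissimus lumborum of the back, taken at slaughter from female pigs aged 23 weeks, and its RNA was sequenced in bulk. In 7 pigs, called fibre1, slow oxidative type I fibres made up over 17% and fast glycolytic type IIB fibres under 70% of fibres by histology. The remaining 4, called fibre2B, had under 8% type I and over 70% type IIB fibres. The labels describe no treatment, mutation or breed, and list every pig as a separate sample, so replicates differ as animals do. The 10 genes were chosen from results of this same comparison, so their differences between the groups are given as a description, with no test.

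Capillaries run along muscle fibres, and oxidative fibres are in general more densely surrounded by them than glycolytic fibres. Endothelial cells of all vessels share a set of receptors and junction proteins, and capillary, arterial and venous endothelium add genes of their own. TIE1 and TEK form the receptor pair for angiopoietins, KDR and FLT1 bind vascular endothelial growth factors (VEGF), and ENG assists the receptor ACVRL1 in sensing bone morphogenetic proteins (BMP). ROBO4 is an endothelial receptor of the roundabout family, EGFL7 is a secreted endothelial protein and ESAM is an adhesion molecule of endothelial junctions. TMEM100 is a small membrane protein of endothelium that depends on BMP signalling through ACVRL1, and BTNL9 is a butyrophilin-like membrane protein known as a marker of capillary endothelium.

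Levels are CPM, counts set against the library total and scaled by TMM factors, which compare a gene between pigs. They are not corrected for transcript length, so levels are not compared between genes. Library totals ran from 14832736 to 36374829 counts. Fibre1 pigs 5 and 6 stood apart: their 10 most abundant genes took 45.2% and 44.2% of the counts, against 29.5% to 36.8% in the other 9 pigs. Their scaling factors were the lowest at 0.718 and 0.779, while the other end of the range was 1.19 in fibre2B pig 14. No library repeated another: chi-square divided by its degrees of freedom was at least 27.8 for each pair of pigs. The 10 genes were counted in every pig, from 9 counts for FLT1 to 1857 for EGFL7. All 10 passed the filter on low counts. PECAM1, an adhesion molecule of all endothelium, lay between 47.2 and 102 CPM in fibre1, and the fibre2B pigs lay between 52.3 and 89.2 CPM. CDH5, VWF, CLDN5, EMCN and CD34, further defining endothelial genes, could not be matched to an ID and were not analysed here.

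The 10 genes did not share a direction. The log2 fold change, fibre1 minus fibre2B, was positive for TIE1, ROBO4, EGFL7, ENG and KDR. It was negative for BTNL9, TMEM100, TEK, ESAM and FLT1. The median of the 10 was 0.05, and without TMEM100 and BTNL9 the median of the other 8 was 0.35. Over all 11329 genes tested the median was 0.0073, and 50.7% of the folds were positive. In bulk RNA, fewer cells of a type and less RNA per cell cannot be told apart. The edgeR fit over all genes called TMEM100 and BTNL9 higher in fibre2B at an adjusted p under 0.05, while it called 9.01% of all genes in either direction, 4.63% as higher in fibre2B and 4.38% as higher in fibre1. It called 0 of the 10 as higher in fibre1, and limma-voom also called 0. By edgeR 4 of the 10 lay toward fibre1 at an unadjusted p under 0.05, and 3 toward fibre2B. Of all 11329 genes 3272 stood at that level in either direction. DESeq2 called 3 of the 10 higher in fibre1, TIE1, EGFL7 and ROBO4, and limma-voom with quality weights called 1, EGFL7. As higher in fibre2B both of these tools called 3, TEK, TMEM100 and BTNL9. Over all genes DESeq2 called 1744 of 18814 in either direction, and limma-voom with quality weights 1748 of 11329. As the genes were chosen on this comparison, nothing is read from these counts. The groups did not overlap for TIE1, with fibre1 above, as for 3.40% of all genes. They did not overlap for TMEM100, with fibre2B above, as for 4.15% of all genes.

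**Figure D1:**
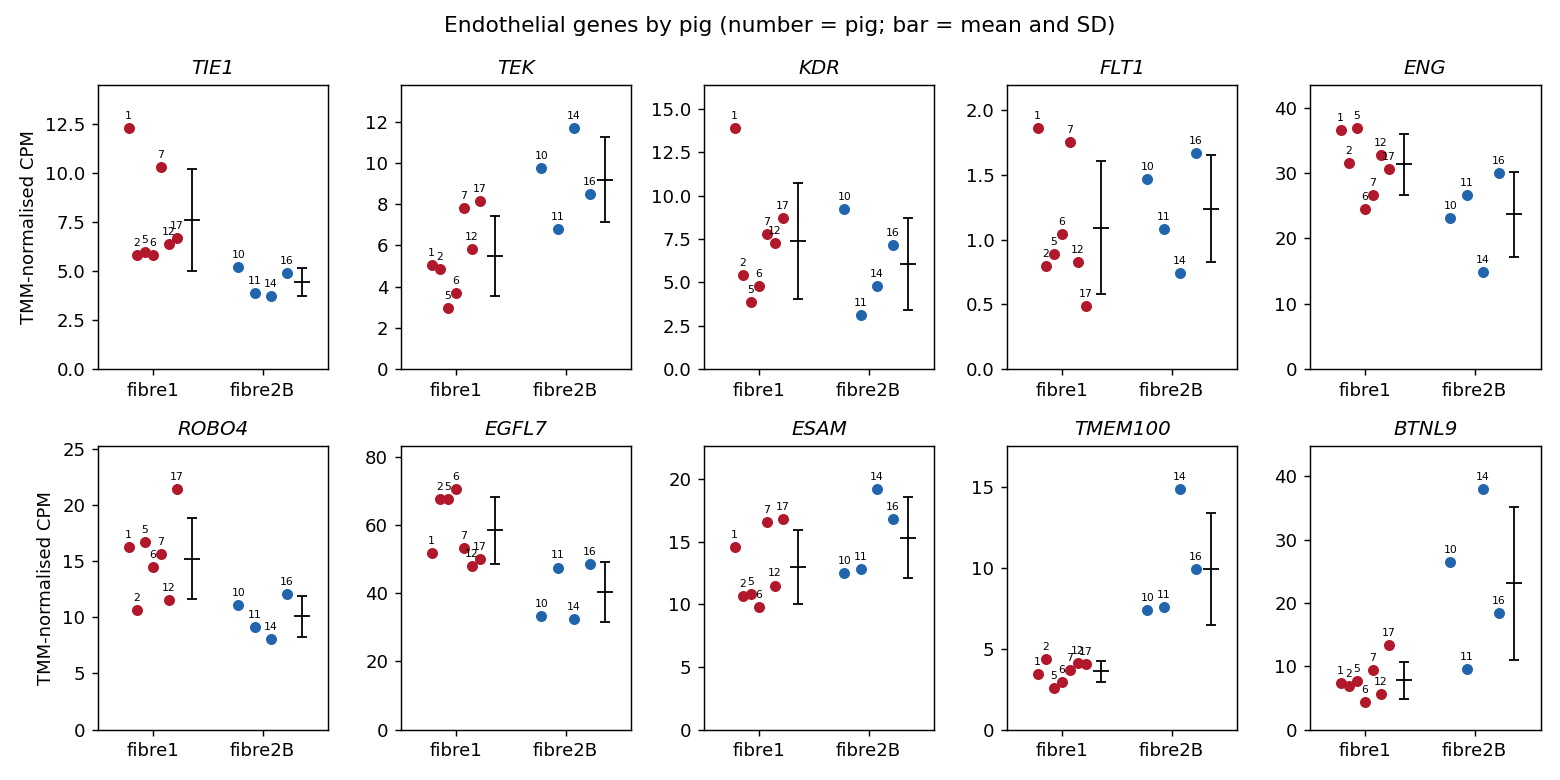
TMM-normalised CPM of each of the 10 genes (y axis, linear, from 0) in the 7 fibre1 pigs (red) and 4 fibre2B pigs (blue), with pig numbers beside the points and the group mean and SD as bars. TIE1 lies higher in every fibre1 pig (lowest 5.80 CPM) than in any fibre2B pig (highest 5.23 CPM), and TMEM100 lies the other way (highest fibre1 pig 4.39 CPM, lowest fibre2B pig 7.38 CPM).

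TIE1 and TEK, the Tie receptors, lay on opposite sides. TIE1 had a lowest level of 5.80, a median of 6.38 and a highest level of 12.3 CPM in fibre1. In fibre2B it was 5.23, 3.90, 3.75 and 4.90 CPM in pigs 10, 11, 14 and 16. Every fibre1 pig was above every fibre2B pig, and fibre1 pigs 1 and 7, at 12.3 and 10.3 CPM, were above the rest. The means were 7.61 ± 2.60 (SD, n = 7) and 4.44 ± 0.731 (SD, n = 4) CPM, a log2 fold change of 0.78 ± 0.24 (SE). TEK, the receptor that binds the angiopoietins directly, had a lowest level of 2.98, a median of 5.03 and a highest level of 8.17 CPM in fibre1, against 9.77, 6.81, 11.7 and 8.49 CPM in fibre2B. The groups overlapped, with fibre1 pigs 7 and 17 within the fibre2B range and the other 5 below it. Its log2 fold change was -0.74 ± 0.25 (SE), from means of 5.48 ± 1.95 (SD, n = 7) and 9.20 ± 2.09 (SD, n = 4) CPM. Without fibre1 pigs 5 and 6, in which TEK was lowest, it was -0.54.

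KDR and FLT1, the VEGF receptors, differed by less than the spread between pigs. KDR, the main signalling receptor for VEGFA, ran from 3.87 through a median of 7.28 to 13.9 CPM in fibre1 and was 9.22, 3.12, 4.77 and 7.14 CPM in fibre2B. The groups overlapped almost wholly, and only fibre1 pig 1 was above the highest fibre2B pig. The log2 fold change was 0.29 ± 0.34 (SE), and it ran from 0.06 without fibre1 pig 1 and 0.08 without fibre2B pig 11 to 0.57 without fibre2B pig 10. FLT1, which also binds VEGFA and can act as a decoy for it, was counted with only 9 to 38 reads per pig. It ran from 0.487 through a median of 0.887 to 1.86 CPM in fibre1 and was 1.47, 1.08, 0.738 and 1.67 CPM in fibre2B. Both fibre1 extremes lay outside the fibre2B range, and the log2 fold change was -0.19 ± 0.37 (SE), from -0.36 without fibre1 pig 1 to -0.01 without fibre2B pig 16. The coefficient of variation among fibre1 pigs was 45.3% for KDR and 47.1% for FLT1, the widest of the 10 genes.

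ENG and ROBO4 lay toward fibre1 with overlapping groups. ENG, the co-receptor of ACVRL1, had a lowest level of 24.5, a median of 31.5 and a highest level of 36.9 CPM in fibre1, against 23.2, 26.6, 14.9 and 30.1 CPM in fibre2B. Of the 7 fibre1 pigs 5 were above all fibre2B pigs, and fibre2B pig 14 was far below the other 3. Its log2 fold change was 0.41 ± 0.18 (SE), and 0.25 without fibre2B pig 14. ROBO4, which is known for stabilising vessels, ran from 10.6 through a median of 15.6 to 21.4 CPM in fibre1 and was 11.1, 9.15, 8.06 and 12.1 CPM in fibre2B. Again 5 fibre1 pigs were above all fibre2B pigs, and fibre1 pigs 2 and 12 lay within their range. The log2 fold change was 0.59 ± 0.20 (SE), from means of 15.2 ± 3.58 (SD, n = 7) and 10.1 ± 1.83 (SD, n = 4) CPM.

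EGFL7 and ESAM, the secreted protein and the junction molecule, lay on opposite sides. EGFL7 ran from 47.8 through a median of 53.1 to 70.5 CPM in fibre1 and was 33.3, 47.5, 32.4 and 48.6 CPM in fibre2B. Only fibre1 pig 12, the lowest of its group, lay within the fibre2B range. The fibre1 pigs fell apart, with pigs 6, 2 and 5 at 70.5, 67.7 and 67.7 CPM and the other 4 at 47.8 to 53.1 CPM. The log2 fold change was 0.53 ± 0.17 (SE), and its lowest value under the alternatives tried was 0.31. ESAM had a lowest level of 9.82, a median of 11.5 and a highest level of 16.8 CPM in fibre1, against 12.5, 12.8, 19.2 and 16.8 CPM in fibre2B. Of the fibre1 pigs 4 were below all fibre2B pigs and the other 3 lay among them. The log2 fold change was -0.24 ± 0.19 (SE), and it was -0.13 without fibre1 pigs 5 and 6. Leaving out fibre2B pig 14 gave -0.11 for ESAM.

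TMEM100 and BTNL9 were the farthest from no change. TMEM100 had a lowest level of 2.60, a median of 3.72 and a highest level of 4.39 CPM in fibre1, and was 7.38, 7.59, 14.9 and 9.95 CPM in fibre2B. The 7 fibre1 pigs lay close together, with a coefficient of variation of 18.1%, and all 4 fibre2B pigs were above them. The means were 3.61 ± 0.653 (SD, n = 7) and 9.95 ± 3.48 (SD, n = 4) CPM, a log2 fold change of -1.45 ± 0.21 (SE), or 2.73-fold. BTNL9 ran from 4.39 through a median of 7.33 to 13.4 CPM in fibre1 and was 26.4, 9.58, 38 and 18.4 CPM in fibre2B. Only fibre1 pig 17 reached the fibre2B range, above fibre2B pig 11. The log2 fold change was -1.56 ± 0.33 (SE), or 2.95-fold, from means of 7.83 ± 2.93 (SD, n = 7) and 23.1 ± 12.1 (SD, n = 4) CPM. Fibre2B pig 14 had the highest level of both genes. Without it the folds were -1.19 for TMEM100 and -1.21 for BTNL9, and neither gene was called. BTNL9 was also not called without fibre1 pigs 5 and 6, at -1.44, whereas TMEM100 was.

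A ratio of 2 genes within a pig does not depend on the scaling of that library, apart from the 1 CPM added to each. The log2 ratio of TIE1 to TMEM100 was 0.86 ± 0.43 (SD, n = 7) in fibre1 and -0.97 ± 0.55 (SD, n = 4) in fibre2B. Its range was 0.34 to 1.57 in fibre1 and -1.74 to -0.43 in fibre2B. The groups did not overlap, and the shift was 1.83. As levels are not compared between genes, only the shift is read and not the sign of a ratio. Against TMEM100 the ratios of EGFL7, ROBO4, ENG and ESAM also separated the groups, with shifts of 1.74, 1.74, 1.63 and 0.98. Those of TEK, KDR and FLT1 shifted by 0.52, 1.45 and 1.10 with overlapping groups. ESAM lay toward fibre1 relative to TMEM100 although its own level lay toward fibre2B. That follows from the folds already given, -0.24 for ESAM and -1.45 for TMEM100, and is no separate result.

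Against BTNL9 the ratios of TIE1, ROBO4 and KDR separated the groups, with shifts of 1.98, 1.89 and 1.6. Those of EGFL7, ENG, ESAM, FLT1 and TEK shifted the same way by 1.88, 1.78, 1.13, 1.24 and 0.67, with overlap. BTNL9 relative to TMEM100 hardly moved, at 0.89 ± 0.44 (SD, n = 7) in fibre1 and 1.03 ± 0.61 (SD, n = 4) in fibre2B. TEK to TMEM100 was the smallest shift among the 8 other genes. These ratios come from the levels on which the genes were chosen and carry no test.

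**Figure D2:**
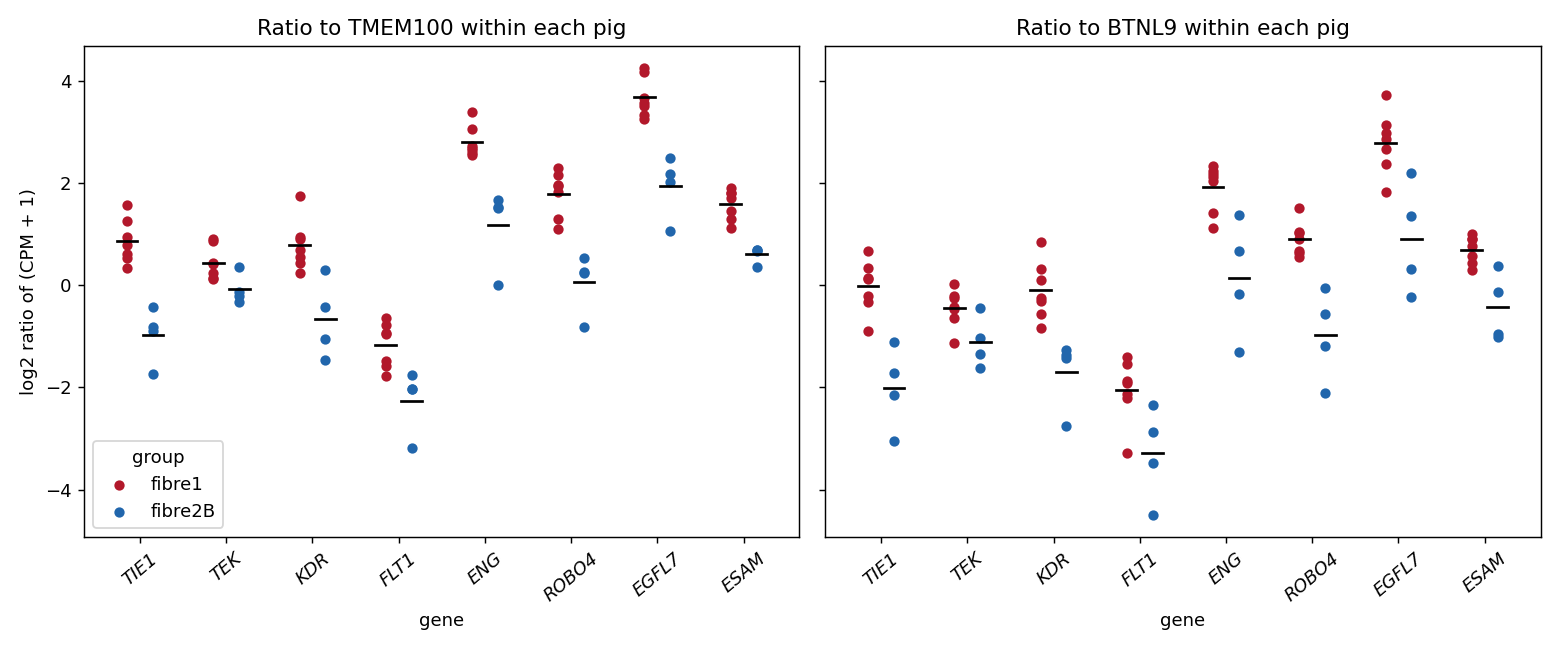
Log2 ratio of (CPM + 1) of each of 8 endothelial genes to TMEM100 (left) and to BTNL9 (right) in each fibre1 pig (red) and fibre2B pig (blue), with group means as lines. For TIE1 to TMEM100 the fibre1 pigs lie between 0.34 and 1.57 and the fibre2B pigs between -1.74 and -0.43, whereas for TEK to TMEM100 the groups overlap.

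Whether endothelial genes as a whole differed was asked of genes outside the 10. Of 45 other pan-endothelial genes listed, 27 had an ID and 22 passed the filter. The mean log2 CPM of the other pan-endothelial genes, with 1 CPM added, was 2.97 ± 0.30 (SD, n = 7) in fibre1 and 2.999 ± 0.16 (SD, n = 4) in fibre2B, a difference of -0.03 (two-sided exact permutation p = 0.891, where the smallest possible was 0.003). Fibre1 pigs 5 and 6 had the lowest means, 2.69 and 2.61, and pig 7 the highest, 3.35. Without pigs 5 and 6 the difference was 0.10 (exact permutation p = 0.468). Of the 22 genes 11 had positive and 11 negative folds, with a median of 0.01. That is close to all genes tested, of which 50.7% had positive folds, with a median of 0.0073.

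edgeR called 1 of these 22 genes higher in each group. AFAP1L1, an actin-associated adaptor protein, was higher in fibre1 by 0.64 ± 0.18 (SE) on the log2 scale, at 8.89 ± 1.82 (SD, n = 7) against 5.71 ± 0.688 (SD, n = 4) CPM (edgeR adjusted p = 0.0419). NOSTRIN, which controls the location of endothelial nitric oxide synthase, was higher in fibre2B at -1.10 ± 0.28 (SE), with 2.97 ± 1.06 against 6.40 ± 2.28 CPM (edgeR adjusted p = 0.0349). The call for AFAP1L1 was lost on removal of any 1 of fibre1 pigs 1, 2, 5, 17 and the fibre2B pigs (edgeR adjusted p = 0.0531 to 0.107), and that for NOSTRIN on removal of any 1 of fibre1 pigs 1, 2, 5, 6 and fibre2B pigs 10, 14 and 16 (edgeR adjusted p = 0.0559 to 0.126). RASIP1, a regulator of vessel lumen formation, was at 0.67 ± 0.22 and did not pass (edgeR adjusted p = 0.072).

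Capillary genes outside the 10 had folds of the same sign as TMEM100 and BTNL9. Of 12 listed, 4 had an ID, all 4 were tested, and all 4 folds were negative, with a median of -0.68. Over all genes 50.7% of the folds were positive, and edgeR called 4.63% higher in fibre2B. The groups did not overlap, with fibre2B above, for 4.15% of all genes. MEOX2, a homeobox factor of muscle and heart endothelium, was higher in every fibre2B pig than in any fibre1 pig, at 16.7 ± 6.08 against 7.14 ± 3.12 CPM, a log2 fold change of -1.22 ± 0.30 (edgeR adjusted p = 0.0304). FABP5, a fatty acid binding protein that other cell types also express, was at 97.9 ± 27.3 CPM in fibre1 against 160 ± 22.4 CPM, a change of -0.71 ± 0.21 (edgeR adjusted p = 0.049). RGCC and CA4, a regulator of cell growth and a carbonic anhydrase of the capillary surface, stood at -0.65 and -0.45 and did not pass (both edgeR adjusted p = 0.134). The call for MEOX2 was lost on removal of any 1 of fibre1 pigs 1, 2, 5, 6 and fibre2B pigs 10 and 14 (edgeR adjusted p = 0.0521 to 0.119). That for FABP5 was lost on removal of any 1 of the same fibre1 pigs and the fibre2B pigs (edgeR adjusted p = 0.0525 to 0.152), and limma-voom did not call it.

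Arterial and venous endothelial genes showed no common side. Of 9 tested arterial genes 3 had positive and 6 negative folds, and HEY1, a transcription factor induced by Notch, was higher in fibre2B at -0.93 ± 0.26 (edgeR adjusted p = 0.0438). Of 4 tested venous genes 3 were positive, and VCAM1, an adhesion molecule also found on satellite cells, was higher in fibre2B at -1.003 ± 0.29 (edgeR adjusted p = 0.0486). The call for HEY1 was lost on removal of any 1 of fibre1 pigs 1, 2, 5, 6, 7 and the fibre2B pigs (edgeR adjusted p = 0.056 to 0.123). That for VCAM1 was lost on removal of any 1 of fibre1 pigs 1, 2, 5, 6, 7, 17 and fibre2B pigs 10, 14 and 16 (edgeR adjusted p = 0.0565 to 0.198), and limma-voom did not call it. Of 3 tested lymphatic genes edgeR and DESeq2 called 0, with 0 at an unadjusted p under 0.05, and limma-voom also called 0, with 1 at that level. Of all 11329 genes 3272 stood at that level by edgeR and 3177 by limma-voom.

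**Figure D3:**
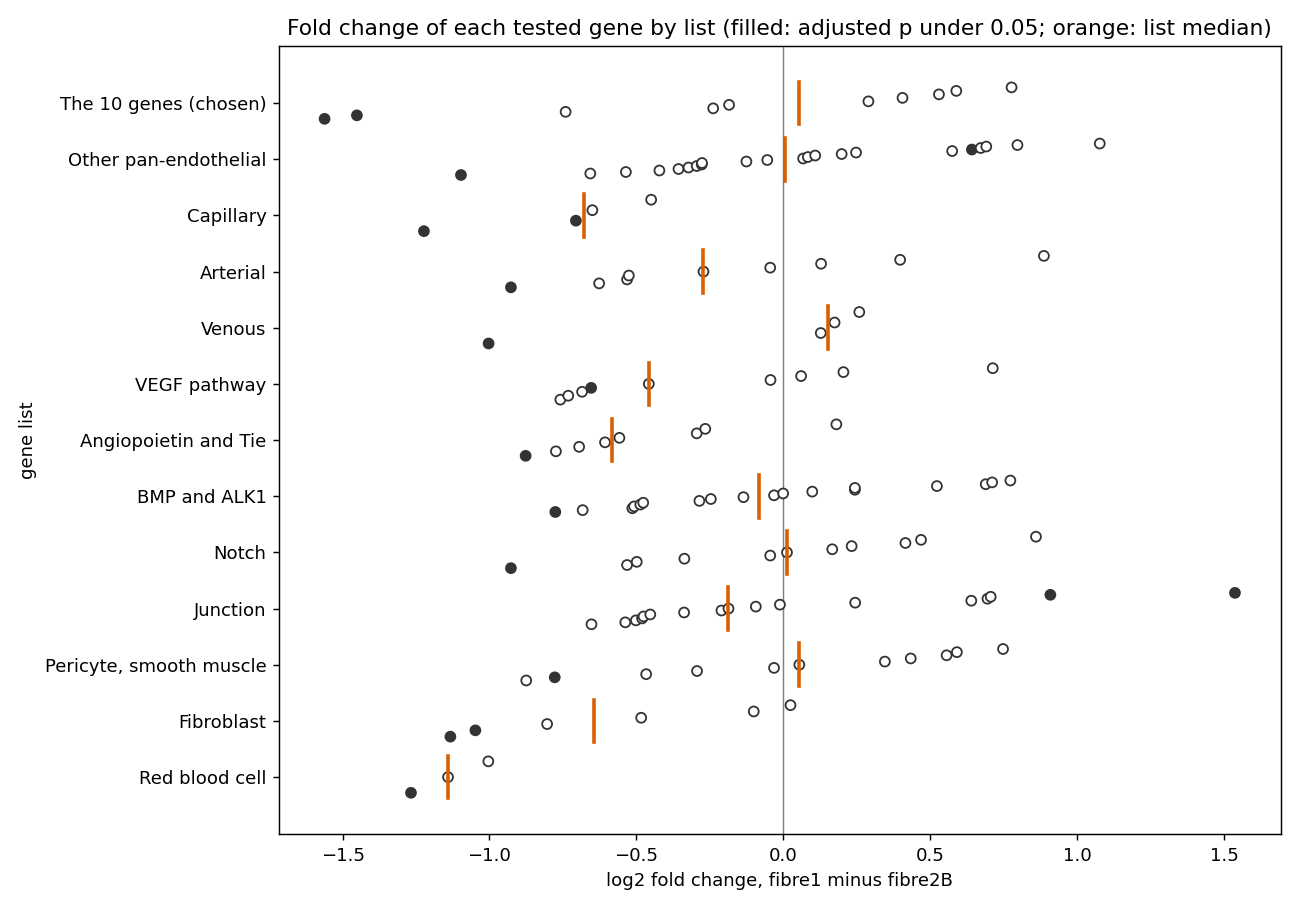
Log2 fold change, fibre1 minus fibre2B (x axis), of each tested gene in the 10 chosen genes and in 12 of the other lists (rows), filled where the edgeR adjusted p was under 0.05, with the list median in orange. The 22 other pan-endothelial genes spread around a median of 0.01, whereas all 4 capillary genes lie below 0.

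Genes around each receptor were followed from lists of ligands, related proteins and downstream genes. For the Tie receptors, the list held angiopoietin-like proteins as well as the angiopoietins and downstream genes. Of its 8 tested genes 7 had negative folds, with a median of -0.58. ANGPTL1, a secreted angiopoietin-like protein, was higher in fibre2B at -0.88 ± 0.21, with 3.14 ± 0.804 against 5.78 ± 1.11 CPM (edgeR adjusted p = 0.027). FOXO1, a transcription factor held in check by TEK signalling, was at -0.70 ± 0.23 and did not pass (edgeR adjusted p = 0.071), although DESeq2 called it. Without fibre2B pig 14 the fold of FOXO1 was -0.30. The angiopoietins did not differ beyond their spread, with ANGPT1 at -0.56 ± 0.52 and ANGPT2 at -0.27 ± 0.46. The call for ANGPTL1 was lost on removal of any 1 of fibre1 pigs 1, 2 and fibre2B pigs 10, 11 and 14 (edgeR adjusted p = 0.0501 to 0.0851).

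For the VEGF receptors, 6 of 9 tested partners had negative folds, with a median of -0.46. HIF1A, the oxygen-regulated transcription factor, was higher in fibre2B at -0.65 ± 0.17, with 5.32 ± 0.622 against 8.39 ± 1.87 CPM (edgeR adjusted p = 0.0336). The call was lost on removal of any 1 of fibre1 pigs 1, 2, 5, 6 and fibre2B pigs 10, 14 and 16 (edgeR adjusted p = 0.0507 to 0.114). VEGFC and VEGFD, ligands that act mostly on lymphatic vessels, stood at -0.69 ± 0.21 (edgeR adjusted p = 0.0583) and -0.76 ± 0.23 (edgeR adjusted p = 0.053). Both were called by DESeq2, and VEGFC was also called by limma-voom. VEGFA, the main ligand of KDR and FLT1, was at -0.73 ± 0.37 with overlapping groups (edgeR adjusted p = 0.201).

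For ENG and TMEM100, 18 genes of BMP and of transforming growth factor beta (TGF-beta) signalling were tested. Of these 7 had positive and 11 negative folds, with a median of -0.08. BMP4, a BMP ligand, was higher in fibre2B at -0.78 ± 0.23 (edgeR adjusted p = 0.0496). Its call was lost on removal of any 1 pig other than fibre1 pig 12 (edgeR adjusted p = 0.0607 to 0.135) and with limma-voom. SMAD7, an inhibitor of this signalling, and the TGF-beta ligand TGFB1 lay toward fibre1 at 0.77 ± 0.24 and 0.52 ± 0.16. Neither passed (edgeR adjusted p = 0.0576 and 0.0575). DESeq2 called both. ACVRL1 itself, the receptor that ENG assists, was at 7.61 ± 1.78 against 6.45 ± 0.877 CPM, a difference of 0.24 ± 0.19 (edgeR adjusted p = 0.426). BMPR2, its partner receptor, was at -0.25 ± 0.13 (edgeR adjusted p = 0.219).

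For ROBO4, 3 of 11 listed Slit and Robo partners were tested. All 3 folds were positive, edgeR, DESeq2 and limma-voom each called 0, and 1 gene stood at an unadjusted p under 0.05 in each. By edgeR 3272 of all 11329 genes stood at that level. Of 11 tested Notch genes 6 were positive and 5 negative. HEY1, already given, was the 1 Notch gene that edgeR called. The ligand JAG2 lay the other way, at 0.86 ± 0.27 (edgeR adjusted p = 0.0634), and was called by DESeq2, with quality weights and without fibre1 pig 12 or 17.

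Around ESAM, 17 junction genes were tested, and the 2 that edgeR called were higher in every fibre1 pig than in any fibre2B pig. Over all genes edgeR called 4.38% higher in fibre1, and the groups did not overlap, with fibre1 above, for 3.40%. CTNNB1, also listed, was higher in every fibre2B pig, as were 4.15% of all genes. Its fold of -0.34 ± 0.11 did not pass (edgeR adjusted p = 0.0665). RAPGEF1, an exchange factor that activates RAP1 and is expressed in many cell types, was at 68.9 ± 19.9 CPM against 23.7 ± 4.53 CPM, a change of 1.54 ± 0.23 (edgeR adjusted p = 0.0141). PARD3, a cell polarity protein that is also widely expressed, changed by 0.91 ± 0.22 (edgeR adjusted p = 0.0293). Of the 17 genes 11 had negative folds, with a median of -0.19, so RAPGEF1 and PARD3 lay on the other side from ESAM and from most of the list. RAPGEF1 was not called without fibre2B pig 14 (edgeR adjusted p = 0.0574), and PARD3 was not called on removal of any 1 of fibre1 pigs 2, 5 and fibre2B pigs 14 and 16 (edgeR adjusted p = 0.0532 to 0.0939). DESeq2 called 4 junction genes higher in fibre1 and 3 higher in fibre2B, and limma-voom with quality weights 4 and 2. Over all genes DESeq2 called 896 and 848 of 18814, and limma-voom with quality weights 861 and 887 of 11329. Both called KRIT1, a stabiliser of endothelial junctions, higher in fibre2B, where edgeR gave -0.48 ± 0.15 (edgeR adjusted p = 0.0643). For BTNL9, 4 of 12 listed butyrophilin genes had an ID and none was counted well enough to be tested. BTN1A1 and BTNL2 were at 0 in all pigs.

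Over all endothelial, vessel-type and pathway lists, 103 different genes outside the 10 were tested. edgeR called 3 of them higher in fibre1 and 8 higher in fibre2B. That is 10.7%, close to the 9.01% of all genes. Of these 11 calls 10 were lost without fibre1 pigs 5 and 6 and 10 with no scaling factors, RAPGEF1 remaining, and 9 were lost with a covariate for the counts taken by the 10 top genes, RAPGEF1 and AFAP1L1 remaining. Without fibre2B pig 14 edgeR called 0 genes of any kind, with 2436 at an unadjusted p under 0.05. The lists hold RAPGEF1, VCAM1 and FOXO1, which earlier results of these data had already named.

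Some markers of other cell types also passed in this comparison, though most did not. Of 6 tested fibroblast markers DCN and LUM were higher in fibre2B, at -1.13 ± 0.24 and -1.05 ± 0.25 (edgeR adjusted p = 0.019 and 0.0259), and the list summed to 476 to 985 CPM among fibre1 pigs against 747 to 1444 CPM. Of 3 tested red blood cell markers HBB was higher in fibre2B at -1.27 ± 0.35 (edgeR adjusted p = 0.041). The 3 together summed to 137 to 468 CPM in fibre1 against 423 to 957 CPM in fibre2B. Of 11 tested pericyte and smooth muscle markers 6 had positive and 5 negative folds. edgeR called only KCNJ8, higher in fibre2B at -0.78 ± 0.21 (edgeR adjusted p = 0.038), while DESeq2 also called 2 higher in fibre1 and limma-voom called 0, and the sums overlapped at 158 to 247 and 163 to 202 CPM. The 10 leukocyte markers tested, 5 positive and 5 negative, gave 0 calls by edgeR, DESeq2 and limma-voom, with 2 at an unadjusted p under 0.05 by edgeR, and their sum ran from 7.34 to 27.5 and from 16.5 to 40.1 CPM. DCN was not called without fibre2B pig 14 (edgeR adjusted p = 0.0699), and LUM was not on removal of any 1 of fibre1 pig 2 and fibre2B pig 11 or 14 (edgeR adjusted p = 0.0514 to 0.0851). HBB was not called on removal of any 1 of fibre1 pigs 1, 2, 17 and the fibre2B pigs (edgeR adjusted p = 0.0516 to 0.153), nor KCNJ8 on removal of any 1 of fibre1 pigs 1, 2, 5, 6 and fibre2B pigs 10, 11 and 14 (edgeR adjusted p = 0.0531 to 0.148). Without fibre1 pigs 5 and 6 DCN, LUM and KCNJ8 were not called (edgeR adjusted p = 0.063, 0.0838 and 0.102). With no scaling factors or with the covariate LUM (edgeR adjusted p = 0.0615 and 0.0502) and KCNJ8 (0.0708 and 0.0747) were not. The part of these cells in the differences of TMEM100, BTNL9 and the other 8 genes was not tested.

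Within the 7 fibre1 pigs the group comparison plays no part, so covariation there could be tested. Of the 45 pairs 29 had a positive and 16 a negative Pearson r, with a median of 0.22. None passed an adjusted p of 0.05 over the 45 pairs by r or by Spearman's rho, and 5 stood at an unadjusted exact permutation p under 0.05 by r. Without fibre1 pigs 5 and 6 the median r was -0.0 and 21 pairs were positive. The pairs were not shown to move together across the 7 pigs, a number that leaves wide margins.

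TMEM100 and BTNL9, which lay on the same side between the groups, were barely related within fibre1, with r = 0.29 (exact permutation p = 0.53, adjusted p = 0.85) and rho = -0.04 (exact permutation p = 0.96). Leaving out the 2 pigs farthest from the median of TMEM100 gave r = -0.12. TIE1 and TMEM100, which lay on opposite sides, had r = 0.07 (exact permutation p = 0.9, adjusted p = 0.99) and rho = -0.14 (exact permutation p = 0.78), and r = 0.41 without the 2 farthest pigs. Without fibre1 pigs 5 and 6, in which TMEM100 was lowest, r was -0.98 over the remaining 5 pigs, so the value for TIE1 and TMEM100 rests on which pigs enter. TIE1 and BTNL9 had r = 0.28 (exact permutation p = 0.53, adjusted p = 0.85) and rho = 0.54 (exact permutation p = 0.24), and r = 0.68 without the 2 farthest pigs and 0.08 without pigs 5 and 6. TMEM100 and BTNL9 were at -0.12 without pigs 5 and 6. Over 5 pigs these values carry no test.

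Some pairs gave higher values that did not pass the correction, with and without a receptor in both places. The highest r was 0.84, for TIE1 and FLT1 (exact permutation p = 0.042, adjusted p = 0.35). For that pair rho was 0.50, and r was -0.82 without the 2 farthest pigs but 0.91 without pigs 5 and 6. TEK with ESAM had r = 0.83 and ESAM with BTNL9 had r = 0.82 (exact permutation p = 0.023 and 0.013, adjusted p = 0.35 and 0.29). TIE1 and KDR had r = 0.82 (exact permutation p = 0.012, adjusted p = 0.29) and rho = 0.82 (exact permutation p = 0.034, adjusted p = 0.36), with r = 0.87 without the 2 farthest pigs. TIE1 and TEK had r = 0.40 (exact permutation p = 0.38, adjusted p = 0.85) and rho = 0.61 (exact permutation p = 0.17), and r = 0.83 without the 2 farthest but 0.03 without pigs 5 and 6. KDR and FLT1 had r = 0.45 (exact permutation p = 0.31, adjusted p = 0.77) and rho = 0.18 (exact permutation p = 0.71), and r = -0.10 without the 2 farthest, so that value rests on those pigs. EGFL7 had a negative r with each of the other 9 genes over all 7 pigs, from -0.78 with KDR to -0.12 with FLT1, and none passed the correction. The sign did not hold throughout: with FLT1 rho was 0.18, with TMEM100 r was 0.46 without pigs 5 and 6, and with ENG and ROBO4 it was 0.41 and 0.22 without the 2 farthest pigs. Its pair with KDR was 1 of the 5 below 0.05 unadjusted (exact permutation p = 0.043, adjusted p = 0.35), with rho = -0.64 (exact permutation p = 0.14) and r = -0.72 without the 2 farthest pigs.

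**Figure D4:**
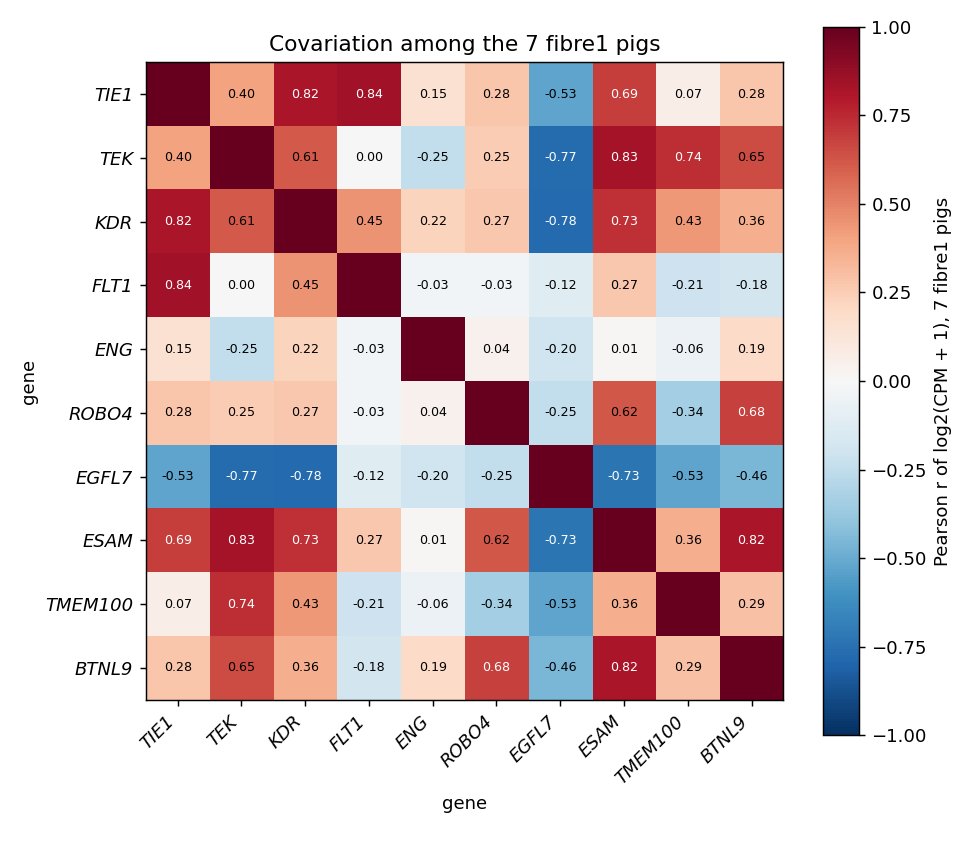
Pearson r of log2(CPM + 1) between each pair of the 10 genes over the 7 fibre1 pigs, in colour from -1 to 1 with the value in each square. The row of EGFL7 is negative against the other 9 genes over all 7 pigs, though not for every pair when pigs are left out, and TMEM100 with BTNL9 is at 0.29.

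In the isoform table TIE1, EGFL7, ROBO4, ESAM, FLT1, TMEM100 and BTNL9 had 1 row each, so that table adds nothing for them. TEK and KDR had 4 and ENG had 2. The join of isoforms to genes was inferred from the counts. ENG had a minor isoform in 3 pigs, at 8.48% of its counts in fibre1 pig 17, 14.5% in fibre2B pig 11 and 7.09% in fibre2B pig 16, and at 0 in the other 8 pigs. A minor KDR isoform took 9.49% in fibre2B pig 16 alone. TEK showed 1 minor isoform, with only 2 counts (1.94%) in fibre1 pig 1 and 1 count (2.13%) in fibre1 pig 5.

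The genes most like TMEM100, BTNL9 and TIE1 were ranked by r across the 11 pigs after each group mean was removed, among 4560 named genes with at least 5 CPM, as a description. For TMEM100 they were GOLGB1 (r = 0.93), CCT8 (0.92), SCAMP2 (0.91), CCL5 (0.91) and PRRC2C (0.91). For BTNL9 they were PIP5K1A (0.95), PRKD3 (0.94), TRAK2 (0.90), LUC7L2 (0.88) and STXBP3 (0.88). For TIE1 they were ZNF385A (0.92), DDHD2 (0.91), ZNF672 (0.90), DBT (0.89) and NOTCH3 (0.89). No gene appeared in more than 1 of these sets. All pairs share libraries, and the highest r among 4560 genes over 11 pigs is high by selection.

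In the RefSeq table of Sscrofa11.1, a later build than that of the counts, ESAM and ROBO4 are separated by 2 protein-coding genes, MSANTD2 and ROBO3. These near neighbours lay on opposite sides here, ROBO4 at 0.59 and ESAM at -0.24. TEK overlaps LOC102166359 and ENG overlaps FPGS in that table, and the sources used here do not give whether counting used strand, so the counts of TEK and ENG are uncertain to that extent.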

How the data were processed

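RNA-seq of longissimus lumborum from 11 pigs was used, with groups and replicate numbers from the sample titles. The deposited gene and isoform tables hold expected counts (estimated read counts that are not normalized), 1 column per pig, which the authors deposited without decimals, so rounding changed nothing. Per the submitters' processing notes the tools were STAR, RSEM, DESeq2, edgeR, FastQC and CASAVA 1.8.2, with no roles stated, and the build was Sscrofa10.2. The series' design text mentions technical repetitions, which are not separate columns here. Gene IDs were given symbols from a reference table, for 11804 of 25322 rows. Of all rows 6508 were at 0 in every pig.

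The gene test was the quasi-likelihood F test of edgeR 4.0.16 (R 4.3.3). It used TMM scaling, a filterByExpr minimum count of 10 and group as the sole term, with Benjamini-Hochberg adjustment over 11329 genes and a threshold of 0.05. Log2 fold changes are fibre1 minus fibre2B, with standard errors from the same test. At 14832736 to 36374829 counts per pig, genes of few CPM, such as FLT1, are the least precise. Means over lists, ratios and correlations used log2(CPM + 1). Single values were tested by two-sided exact permutation over all 330 assignments of the pigs and correlations over all 5040 pairings. Isoforms were joined to genes as runs of rows whose counts sum to the gene, short by at most 1 count per isoform.

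The members and the lists were chosen with earlier results of these data known, and several list genes, among them RAPGEF1, VCAM1, FOXO1, DCN, LUM, HBB and KCNJ8, had been named there. Named genes were the 10 members, up to 3 genes with the smallest p from each of 21 other lists, and the 5 most similar genes for TMEM100, BTNL9 and TIE1. PECAM1, RGCC, VEGFA, ANGPT1, ANGPT2, ACVRL1, BMPR2, CTNNB1, TNNC2, MYL11 and ATP2A1 were added after their values were seen. Alternatives were other scaling factors and filters, DESeq2 1.42.0, limma-voom (limma 3.58.1), a covariate for the share of the 10 most abundant genes, other pseudocounts and leaving out pigs. Some genes of the lists and of this rule are not reported here. The pipeline was tested on simulated data.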

Additional observations from a re-analysis of the deposited data

Results flagged for a closer look

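In 166 groups of values a pig was looked for that stood far from the rest of its group by Dixon's criterion, and 15 were found. Chance gives such a pig in about 5% of groups.

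Of the ratios between the endothelial genes, 3 set fibre2B pig 14 apart. Its log2 ratio of ENG to TMEM100 was 0.0, against 1.51 to 1.68 in the other 3 fibre2B pigs. Its ratio of ESAM to TMEM100 was 0.351, against 0.683 to 0.699, and its ratio of KDR to BTNL9 was -2.76, against -1.42 to -1.26. The same pig had the highest CPM of TMEM100, BTNL9, TEK and ESAM and the lowest of ENG, ROBO4, TIE1, EGFL7 and FLT1 in its group, and the fewest counts in total. It also had 6.3 CPM of CD68, a macrophage marker, against 1.88 to 2.12 in the others. Fibre1 pig 17 stood apart in the log2 ratio of FLT1 to BTNL9, at -3.28 against -2.21 to -1.40.

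Among endothelial and pathway genes, HEY1 was at 7.25 CPM in fibre1 pig 17, while the rest of that group had 2.43 to 4.06. HIF1A was lowest in fibre2B pig 11 at 5.59 CPM against 9.13 to 9.48. PARD3 was at 19.5 CPM in fibre1 pig 6 against at most 13.9. PDPN, a lymphatic marker, was at 3.32 CPM in fibre1 pig 12 against 0.147 to 1.06, and at 0.867 CPM in fibre2B pig 11 against 0.367 to 0.417.

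Among markers of other cells, fibre1 pig 7 had 60.9 CPM of LUM against 23.3 to 38.3 and 1.29 CPM of RBP4 against 0.0541 to 0.520. NCAM1 was at 9.65 CPM in fibre1 pig 12 against at most 5.71. Fibre1 pig 1, in which TIE1, KDR and FLT1 were highest, had 8670 CPM of TNNT1 against 2620 to 3410 and 16400 CPM of MYH6 against 2130 to 5790. TNNT1 encodes the slow-fibre troponin T, and reads of MYH6 may be shared with its near-identical neighbour MYH7.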

How the results depend on the processing

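No paired analysis was possible because no replicate number occurs in both groups. Each of the 10 genes kept the sign of its fold in all 22 alternatives. The number of genes called, 1021, became 157 with no scaling factors, 460 with the covariate, 28 without fibre1 pigs 5 and 6, 1744 with DESeq2 and 1748 with quality weights. Leaving out 1 pig gave 0 to 1548 genes: 0 without fibre2B pig 14 (2436 at an unadjusted p under 0.05 by edgeR), 300 and 325 without fibre2B pigs 16 and 10, 316, 454, 459 and 478 without fibre1 pigs 2, 5, 1 and 6, and 1548 without fibre1 pig 12. The split of higher in fibre1 against fibre2B was 496 to 525, but 53 to 104 with no scaling factors, 112 to 188 without fibre2B pig 16 and 18 to 10 without fibre1 pigs 5 and 6. TIE1 was called with DESeq2, with the covariate or without fibre1 pig 12. EGFL7 was called with DESeq2, with quality weights or without fibre1 pig 12, ROBO4 with DESeq2 or without fibre1 pig 12, and TEK with DESeq2, with quality weights or without fibre1 pig 17.

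The shift in the log2 ratio of TIE1 to TMEM100 was 1.17 with a pseudocount of 5 CPM, which compresses low levels, and 1.58 to 2.01 when 1 pig was left out. The difference in mean log2 CPM of the other pan-endothelial genes changed sign, to 0.103 without fibre1 pigs 5 and 6, and ran from -0.089 to 0.042 when 1 pig was left out. The r of TIE1 with TMEM100 among fibre1 pigs was -0.03 with RLE factors and -0.21 to 0.28 without 1 pig, and -0.98 without fibre1 pigs 5 and 6, and the r of KDR with FLT1 among fibre1 pigs was -0.04 to 0.76 without 1 pig. Signs also changed for NR2F2 (-0.032 with no scaling factors), for MMRN1 (0.128 with the covariate, 0.203 without fibre1 pigs 5 and 6, -0.759 to 0.005 without 1 pig), for ANGPTL4 (0.052 with quality weights, -0.907 to 0.05 without 1 pig) and for NCAM1 (-0.479 to 0.003 without 1 pig). The causes were not tested. Depth limits FLT1 most, at 9 to 38 counts per pig.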

Other observations

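All 9 tested muscle fibre markers had positive folds, with a median of 0.76. The list holds slow-fibre and fast-fibre genes, so the shared sign does not set slow fibres apart from fast. The fast-fibre genes TNNC2, MYL11 and ATP2A1 were at 0.38 ± 0.25, 0.10 ± 0.24 and 0.75 ± 0.34 without passing (edgeR adjusted p = 0.338, 0.81 and 0.165). Of the 9 only MYH6, a myosin heavy chain, passed, at 2.29 ± 0.59 (edgeR adjusted p = 0.0343). It was not called on removal of any 1 of fibre1 pigs 2, 5, 6 and the fibre2B pigs (edgeR adjusted p = 0.0507 to 0.1). TNNT1, the slow troponin T, was at 1.06 ± 0.41 and MYH8 at 1.48 ± 0.52 without passing (edgeR adjusted p = 0.107 and 0.0855). Without fibre1 pig 1 TNNT1 was at 0.69, and without fibre1 pigs 5 and 6 MYH8 was at 0.72 and MYH6 was not called (edgeR adjusted p = 0.0852). Earlier results of these data had named MYH6, TNNT1 and MYH8.

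Nuclear genes of oxidative phosphorylation, of which 11 were tested, had 8 positive and 3 negative folds with a median of 0.13. edgeR and limma-voom called 0 of them, with 2 at an unadjusted p under 0.05 in each, and DESeq2 called 1. Of all 11329 genes 3272 stood at that level by edgeR and 3177 by limma-voom. Of 6 tested adipocyte markers 5 had positive folds and 1 a negative fold, with a median of 0.30. RBP4, a carrier of retinol, was the negative 1 and the only 1 called. It was higher in fibre2B at -2.67 ± 0.71, from low levels of 0.428 and 2.78 CPM (edgeR adjusted p = 0.0383). It lost that call on removal of any 1 of fibre1 pigs 1, 2, 5, 6 and fibre2B pigs 11 and 14 (edgeR adjusted p = 0.0614 to 0.152), and also with limma-voom, no scaling factors, the covariate or without fibre1 pigs 5 and 6. Of 5 tested satellite cell markers 4 had negative folds, and VCAM1 was the 1 that passed. The nerve marker NCAM1 differed by less than its spread, at -0.22 ± 0.32.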
